A study of Mus musculus with 28 samples.

Results

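The comparison described here is bicuculline (BIC) against tetrodotoxin (TTX) in mouse forebrain cultures that carried a control shRNA (shCtrl), read out as nascent RNA by Bru-seq. It rests on 5 of the 16 Bru-seq libraries, out of 28 samples in the whole series: 2 of shCtrl with BIC (replicates 2 and 3) and 3 of shCtrl with TTX (replicates 1, 2 and 3). The cultures came from CD1 embryos of embryonic day 18, with cortices and hippocampi of several embryos pooled, and held neurons, astrocytes and oligodendrocyte precursor cells. A lentivirus with the control shRNA was added on day in vitro 14 to every culture of these groups, including the vehicle group that served as common reference. On day 17 the cultures received 1 µM TTX citrate, 20 µM bicuculline methiodide or water for 4 hours, and bromouridine (2 mM) was present for the last 20 minutes. The vehicle group had 2 libraries (replicates 1 and 2). A parallel arm with an shRNA against Rai1 (shRai1) had 3 libraries for each drug, and 12 ChIP-seq samples were not analysed here.

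TTX blocks voltage-gated sodium channels, so that neurons stop firing action potentials. Bicuculline blocks GABA-A receptors, the main inhibitory receptors of the forebrain, and a network freed from inhibition fires in synchronous bursts. Calcium that enters through NMDA receptors and L-type calcium channels then drives MAP kinase and calmodulin-dependent kinase signalling, which acts on CREB, SRF and MEF2 at the promoters and enhancers of activity-regulated genes. Such genes come in an early wave of transcription factors and a later wave of secreted factors, synaptic proteins and enzymes. Bru-seq captures RNA that took up bromouridine during the label, so it reports transcription in that window rather than the RNA stock of the cell.

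No deposited table compares BIC with TTX directly, so the difference was formed for each gene as the log2 change of BIC from vehicle minus the log2 change of TTX from vehicle. The vehicle level cancels in this difference. The deposited changes of genes with few reads are small, at most 0.63 log2 in either table for the 2731 genes with a mean normalized count between 0 and 1, so differences of low genes are understated. The files give no value per library, so each gene has the authors' log2 changes with their standard errors and 1 pooled FPKM (fragments per kilobase, scaled to library size) for each condition. The standard error of the difference can be given only as an upper bound (written "SE at most"), because both changes share the vehicle libraries. Of 21192 genes with a log2 change in both tables, 12333 reached 50 in the normalized count averaged over libraries and were tested. The 2 genes just under that threshold, Gm6307 and Il4ra, had differences of -0.11 and -1.45 log2, and the 2 just above it, Triqk and 2700070H01Rik, had -0.49 and 0.27. Nothing in the sources used here ties the same replicate number to the same culture preparation. With BIC at replicates 2 and 3, vehicle at 1 and 2 and TTX at all 3, preparation and drug cannot be fully told apart.

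A large share of the tested transcriptome differed between the blocked and the disinhibited network. Of the 12333 genes, 5930 (48.1%) were called at an adjusted p under 0.05, with 3099 (25.1%) higher in BIC and 2831 (23.0%) lower (two-sided Wald test, Benjamini-Hochberg adjustment over all genes tested). The large differences leaned upward. A difference of at least 1 log2 was called upward for 1109 genes (8.99%) and downward for 783 genes (6.35%), and one of at least 3 log2 for 71 and 16 genes. The median over all tested genes was -0.01 log2.

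**Figure D1:**
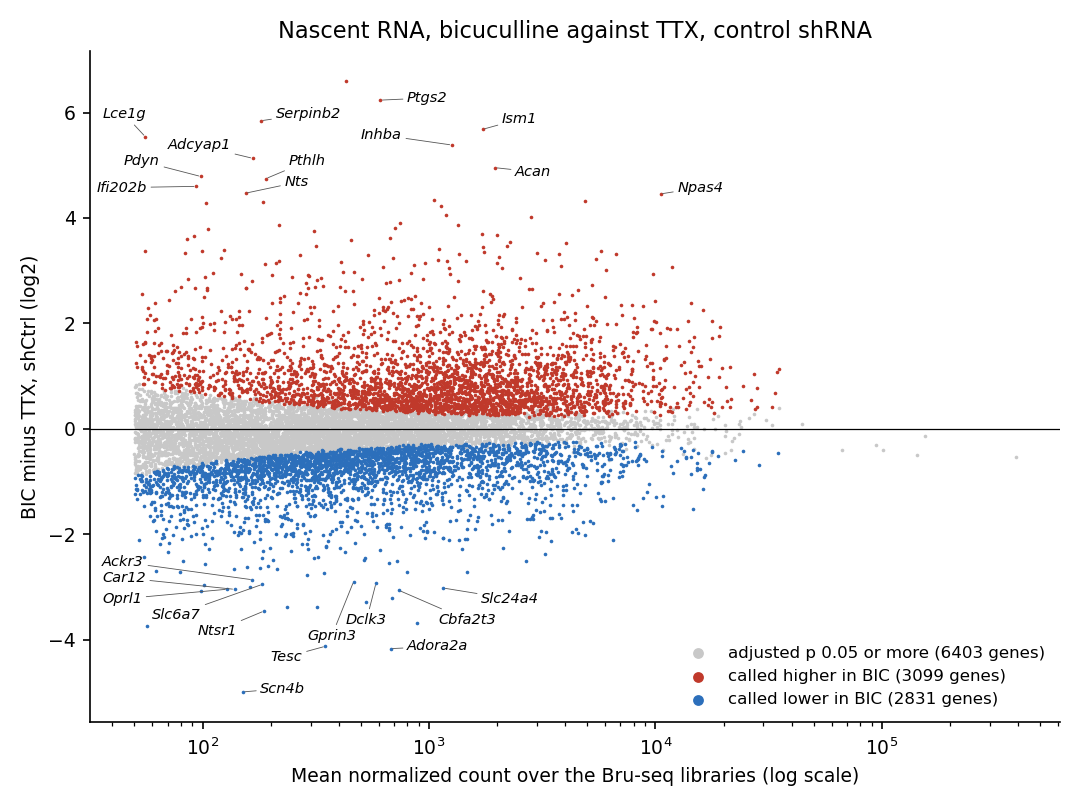
Difference between bicuculline and TTX in control shRNA cultures (vertical axis, log2) against the mean normalized count over the Bru-seq libraries (horizontal axis, log scale), 1 point per gene. Red points are the 3099 genes called higher in BIC, blue points the 2831 called lower and grey points the 6403 not called; the 24 labelled genes are the largest differences that met the naming rule, and the upper tail reaches further from 0 than the lower one.

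The largest rise among genes that met the naming rule was that of Ptgs2, which encodes cyclooxygenase-2, the inducible enzyme of prostaglandin synthesis (deposited interval chr1:151947254-151955142 of mm9, the build in the submitters' processing notes). The authors' pooled FPKM of Ptgs2 was 0.612 in TTX, 14.2 in vehicle and 77.7 in BIC, and the bounds in the file did not overlap between TTX and BIC. The difference was 6.24 log2 (SE at most 0.26, adjusted p 2.63e-121), or 75.3-fold. Opposite changes made up this span, since the authors' deposited tables put Ptgs2 at 2.28 log2 under BIC and -3.95 log2 under TTX, each against vehicle. Inhba, the subunit of activin A, a secreted factor induced by synaptic activity, was at 2.28, 6.18 and 82.0 FPKM in TTX, vehicle and BIC (difference 5.38, SE at most 0.34, adjusted p 1.45e-55). Here most of the span lay above vehicle, at 4.13 log2 under BIC against -1.25 under TTX in the authors' deposited tables. Serpinb2, a protease inhibitor known as plasminogen activator inhibitor 2, was near the lower end of the scale in TTX and vehicle at 0.117 and 0.165 FPKM and reached 13.5 in BIC (difference 5.85, SE at most 0.56, adjusted p 4.06e-24). Acan, the core protein of aggrecan in perineuronal nets, was at 1.56, 4.34 and 28.3 FPKM in TTX, vehicle and BIC (difference 4.95, SE at most 0.21, adjusted p 9.73e-115).

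4 of the 12 largest rises were genes of secreted signalling peptides, a grouping that follows no fixed list and was not tested. Adcyap1 encodes PACAP, a peptide that raises cyclic AMP in neurons, and had 0.624, 5.36 and 29.6 FPKM in TTX, vehicle and BIC (difference 5.13). Nts, the neurotensin precursor, had 0.430, 5.66 and 18.8 FPKM (difference 4.47). Pthlh, which encodes parathyroid hormone-related protein, had 0.391, 4.34 and 15.2 FPKM (difference 4.75). For these 3 genes the vehicle value lay between the drugs and clear of both, whereas Pdyn, the precursor of dynorphins, was low without disinhibition, at 0.258 and 0.483 FPKM, and reached 5.05 in BIC (difference 4.79). Ism1, which encodes the secreted protein isthmin, was also low in TTX and vehicle, at 1.06, 1.90 and 28.2 FPKM (difference 5.68). In the authors' deposited tables Ism1 was called below vehicle under TTX (-1.62) and Pdyn was not (-0.33). Npas4, a transcription factor induced by calcium entry in neurons, had another form. Its FPKM was 50.0 in TTX, 928 in vehicle and 1382 in BIC (difference 4.46), and in the authors' deposited tables nearly the whole span was the TTX change of -3.92, with 0.54 under BIC (adjusted p 0.091). The last 2 of the 12, Lce1g and Ifi202b, were listed at 0 FPKM in TTX, so no fold is given. Their FPKM in BIC was 34.2 and 3.77, and Lce1g, a member of a gene cluster best known from skin, was also listed at 0 in vehicle.

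The promoters of genes that rose this way can be read directly. For the 4 largest differences whose 250 bases upstream of a RefSeq start (GRCm38.p6) held a searched motif, the sequence is printed 5′ to 3′ with the motif in capitals, followed by 2 promoters with a cyclic AMP response element that were picked after the motif was seen. The motifs were the cyclic AMP response element TGACGTCA, the AP-1 site TGANTCA, the CArG box bound by SRF, and TATAAA, each searched on both strands. Serpinb2 holds an AP-1 site that begins at -94 and a TATAAA at -29 from the start. Inhba and Adcyap1 hold TATAAA at -91 and -58, Nts an AP-1 site at -207, and Pcsk1 and Scg2 the cyclic AMP response element at -78 and -68.
Serpinb2, chr1:107511173-107511422, plus strand: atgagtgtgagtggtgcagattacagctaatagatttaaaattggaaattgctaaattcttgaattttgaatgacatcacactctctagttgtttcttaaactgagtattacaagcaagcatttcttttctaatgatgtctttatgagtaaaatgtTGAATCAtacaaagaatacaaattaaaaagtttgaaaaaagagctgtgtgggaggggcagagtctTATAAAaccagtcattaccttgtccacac
Inhba, chr13:16011601-16011850, plus strand: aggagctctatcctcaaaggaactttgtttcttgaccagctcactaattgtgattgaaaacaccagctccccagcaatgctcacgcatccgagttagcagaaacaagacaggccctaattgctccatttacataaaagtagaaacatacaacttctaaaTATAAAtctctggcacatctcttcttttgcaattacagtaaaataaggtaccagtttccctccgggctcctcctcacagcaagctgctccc
Adcyap1, chr17:93198918-93199167, plus strand: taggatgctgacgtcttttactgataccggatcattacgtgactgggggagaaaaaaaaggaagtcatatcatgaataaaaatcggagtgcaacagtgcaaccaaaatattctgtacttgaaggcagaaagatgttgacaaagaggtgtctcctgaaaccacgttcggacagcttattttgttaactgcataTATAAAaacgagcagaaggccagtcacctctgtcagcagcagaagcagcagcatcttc
Nts, chr10:102490419-102490668, minus strand: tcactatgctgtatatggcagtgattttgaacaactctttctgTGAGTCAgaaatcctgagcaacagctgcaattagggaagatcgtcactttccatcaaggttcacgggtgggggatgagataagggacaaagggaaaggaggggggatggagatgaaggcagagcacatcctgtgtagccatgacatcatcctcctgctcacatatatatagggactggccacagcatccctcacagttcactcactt
Pcsk1, chr13:75089607-75089856, plus strand: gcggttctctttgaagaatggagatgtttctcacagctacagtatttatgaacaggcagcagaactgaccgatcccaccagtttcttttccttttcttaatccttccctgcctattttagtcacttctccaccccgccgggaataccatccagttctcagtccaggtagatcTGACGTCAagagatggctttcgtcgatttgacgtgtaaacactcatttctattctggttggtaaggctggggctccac
Scg2, chr1:79440027-79440276, minus strand: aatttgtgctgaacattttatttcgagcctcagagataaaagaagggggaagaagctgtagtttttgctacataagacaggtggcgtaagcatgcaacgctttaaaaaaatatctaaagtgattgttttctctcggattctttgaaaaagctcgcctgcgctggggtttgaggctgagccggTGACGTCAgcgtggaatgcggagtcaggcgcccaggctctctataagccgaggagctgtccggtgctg

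Motifs were also counted over all promoters for the 2 directions. The cyclic AMP response element was present in 4.97% of the 825 matched genes called higher by at least 1 log2 and in 1.08% of the 556 called lower by as much, against 3.27% of 9293 tested genes and 1.77% of all 27025 genes in the promoter table. TATAAA was in 12.2% of the genes called higher, 6.47% of those called lower and 7.62% of tested genes. The AP-1 letters were in 8.0%, 4.50% and 5.34%, and the CArG box in 1.82%, 1.26% and 1.32%. Over all genes in the promoter table the shares were 7.82% for AP-1 letters, 1.62% for the CArG box and 14.3% for TATAAA. Of the 4857 matched genes not called, 3.66% held the cyclic AMP response element. A gene was counted if the window of any of its RefSeq starts held the motif, so genes with more starts had more chances. The CArG box shares of the 2 directions rest on 15 and 7 genes. All these shares are a description of letters in a fixed window and no test was made.

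The largest falls were led by Scn4b, the beta-4 auxiliary subunit of voltage-gated sodium channels, which is the protein family that TTX blocks. Its pooled FPKM was 8.66 in TTX, 2.82 in vehicle and 0.191 in BIC (difference -4.99, SE at most 0.36, adjusted p 5.04e-41, or 31.7-fold lower in BIC; deposited interval chr9:44947125-44962144 of mm9). In the authors' deposited tables Scn4b moved about equally from vehicle in both directions, at 2.58 under TTX and -2.41 under BIC. Adora2a, an adenosine receptor that raises cyclic AMP, was at 28.6, 22.7 and 0.713 FPKM (difference -4.17, SE at most 0.23, adjusted p 4.53e-71). Its span lay below vehicle, with -3.65 under BIC and 0.52 under TTX in the authors' deposited tables. Ackr3, a scavenging chemokine receptor, had the reverse form, at 11.3 FPKM in TTX against 3.33 in vehicle and 2.46 in BIC (difference -2.86). In these mixed cultures, fewer cells of a type and less RNA per cell cannot be told apart.

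Receptor and transporter genes were among the other large falls. Ntsr1, the receptor of neurotensin, fell where its ligand gene Nts rose, at 5.06, 3.43 and 0.867 FPKM in TTX, vehicle and BIC (difference -3.45). Oprl1, the receptor of nociceptin, was at 15.3, 6.38 and 1.70 FPKM (difference -3.04), opposite to the nociceptin precursor Pnoc at 11.2, 20.5 and 65.3 (difference 4.02, adjusted p 2.1e-158). The pairing of these ligands with their receptors was noticed after the values were seen. Slc24a4, a sodium, potassium and calcium exchanger, differed by -3.02 log2, Slc6a7, a proline transporter of glutamate synapses, by -2.95, and Car12, a membrane carbonic anhydrase, by -3.04. Tesc, which encodes the calcium-binding protein tescalcin, fell from 15.9 to 2.97 FPKM (difference -4.12). The kinase gene Dclk3, the corepressor gene Cbfa2t3 and Gprin3, whose protein interacts with G proteins, completed the 12 with differences of -2.93, -3.06 and -2.90. Gprin3 was not called against vehicle under TTX in the authors' deposited tables (0.23, adjusted p 0.25), so the fall under BIC (-2.67) made up the difference.

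**Figure D2:**
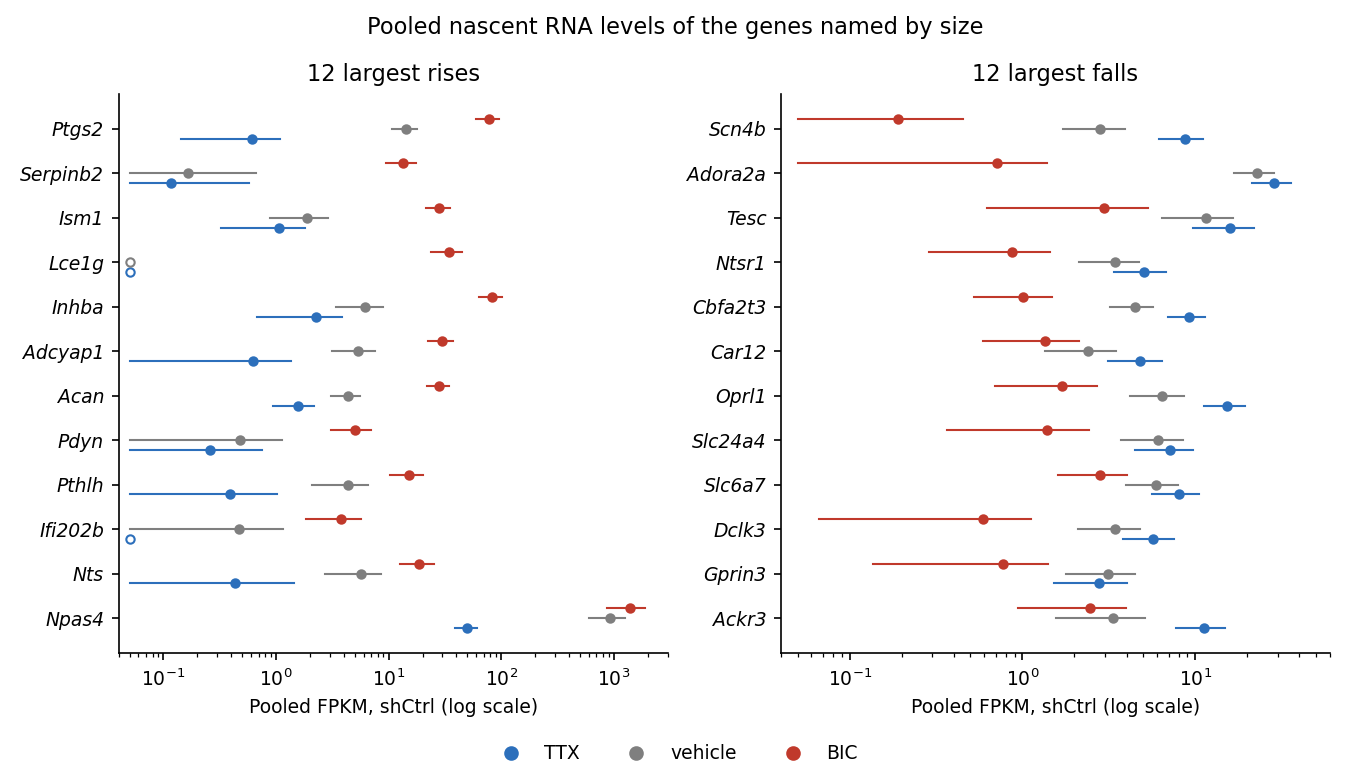
Authors' pooled FPKM (horizontal axis, log scale) of the 12 largest rises and the 12 largest falls in shCtrl cultures under TTX (blue), vehicle (grey) and BIC (red); lines are the bounds given in the file, cut at the left edge where they reach lower, and open circles are values listed at 0. TTX and BIC bounds do not overlap for any of the 24 genes, which the naming rule required, while vehicle lies near TTX for Serpinb2 and Pdyn and near BIC for Npas4 and Ackr3.

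Early-response transcription factors were mostly higher in BIC. Of 24 listed, all were tested, 20 were higher in BIC, 1 was lower and 3 were not called. The median difference was 1.94 log2 against -0.01 for all tested genes. For this and the later lists, the shares over all tested genes were 25.1% higher and 23.0% lower. Fosl2 (3.31, adjusted p 5.44e-110), Nr4a3 (2.56), Atf3 (4.33) and Fos (3.10) were among those higher, with Fos at 76.9, 569 and 839.6 FPKM in TTX, vehicle and BIC. Maff, a small bZIP factor, was higher by 2.87 log2, Arnt2, a dimer partner of Npas4, by 1.31, and Nab1, a corepressor of EGR proteins, by 1.49. Nab2, its paralogue, was the member called lower (-0.80, adjusted p 0.00705), and its interval overlaps that of another listed gene. Egr3 (0.14, adjusted p 0.72), Ier2 (0.60, adjusted p 0.16) and Jund (0.46, adjusted p 0.053) were not called.

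More of these factors were lowered by TTX than raised by BIC. In the authors' deposited tables TTX put 22 of the 24 factors below vehicle (18.2% of all tested genes were), and 11 were above vehicle under BIC (21.5% of all) while 6 were below it (22.1% of all). The EGR family is named here after its values were seen. Egr1 was at 201, 1009 and 581 FPKM in TTX, vehicle and BIC, so its highest level was in vehicle. Egr3 was low under both drugs, at 49.1 and 59.6 FPKM against 225 in vehicle, and the authors' deposited tables gave it -2.11 under TTX and -1.97 under BIC. Klf4 was the opposite case, close to vehicle under TTX at -0.44 log2 and 2.41 log2 above it under BIC in the authors' deposited tables.

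Signalling and synaptic effectors of activity moved together in 1 direction. Of 24 listed genes 22 were tested, and all 22 were higher in BIC (25.1% of all tested genes were), with a median of 2.51 log2. The 2 members under the filter, Rrad and Rasd1, had fitted differences of 2.1 and 0.93. Besides Ptgs2, the strongest calls were Ifrd1 (3.37, interval shared with another listed gene), Rgs2 (3.44) and Rgs4 (3.26), which encode brakes on G protein signalling, Gadd45g (3.87), Syt4, a synaptotagmin (3.04), Homer1, a postsynaptic scaffold with a short activity-induced form (2.05), and Plk2, a kinase that weakens excitatory synapses (2.64). Gadd45g had the highest pooled level of these in vehicle and BIC, at 233 and 765 FPKM. In TTX it was at 52.7 FPKM, below Plk2 at 81.4. Arc, whose protein takes AMPA receptors into endosomes, was at 61.1, 413 and 783 FPKM (difference 3.31, SE at most 0.34, adjusted p 3.88e-21).

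Feedback inhibitors of MAP kinase signalling were also higher in BIC. Of 16 listed genes 15 were tested, 12 were higher in BIC and none was lower, with a median of 1.84 log2. They included phosphatases of MAP kinases (Dusp4 3.36, Dusp10 2.61, Dusp6 1.98, Dusp5 1.95) and Sprouty and Spred proteins, which act on the pathway further upstream (Spry2 2.32, Spred1 2.22, Spred2 1.84, Spry4 1.81). Spry1 (0.27), Dusp7 (0.21) and Dusp8 (-0.38) were not called. Dusp2, under the filter, had a fitted difference of -0.82 (SE at most 0.57), without a test. Ligands and receptors of the EGF family, which feed the same pathway, were mixed. Of the 9 tested of 15 listed, 3 were higher (Hbegf 1.71, Nrg1 1.65, Erbb4 0.82) and 2 were lower, Nrg2 at -2.05 and Egf at -0.67. Egf was near the lower end of the scale, at 0.340 FPKM in TTX and 0.306 in BIC, with overlapping bounds. Over all tested genes 25.1% were higher and 23.0% lower. Among members under the filter, fitted differences ran from -0.41 for Btc to 4.19 for Areg, without a test.

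Secreted factors of activity had the highest median among the lists at the main count filter, 3.17 log2 over the 16 tested of 18 listed. Of the tested genes 13 were higher, 1 was lower and 2 were not called. The rank depended on the filter. With a mean count of at least 10, neuropeptide precursors were above secreted factors, at 3.00 against 2.73. Over all measured members the order was the other way, at 1.90 against 2.73. Fam150b, a ligand of the ALK receptor, had the largest difference of all tested genes at 6.59, but its interval overlaps that of another listed gene. Pcsk1, a convertase that cleaves prohormones, was at 1.55, 5.94 and 27.9 FPKM in TTX, vehicle and BIC (difference 4.23, adjusted p 6.20e-100), and Scg2, a granin of dense-core vesicles, at 11.6, 40.8 and 125 (difference 3.81). Bdnf, the neurotrophin of activity-dependent plasticity, rose from 8.76 to 72.1 FPKM with 24.7 in vehicle (difference 3.54, SE at most 0.20, adjusted p 2.49e-65). The pentraxin gene Nptx2 (3.71), the granin-like gene Vgf (2.80) and Igf1 (2.65) were further strong calls. Ntf3, another neurotrophin gene, was the member called lower, with 1.23, 0.519 and 0.394 FPKM in TTX, vehicle and BIC (difference -2.17, adjusted p 2.33e-08). Stc1 (0.41) and Lif (0.23) were not called. The 2 members under the filter, Fst and Gdf15, had differences of 1.12 and 0.12.

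Neuropeptide precursors divided by gene. Of 16 listed only 9 passed the count filter, and 6 of them were higher in BIC and none lower, so that a low precursor could enter the test only by being high in some group. The 6 were Adcyap1, Pdyn, Nts, Pnoc, Penk (12.8, 90.5 and 106 FPKM in TTX, vehicle and BIC, difference 3.10) and Vip (1.06, adjusted p 0.014). Abundant interneuron peptides were not called. Sst was at 159, 162 and 154 FPKM (difference 0.19, adjusted p 0.60), Cck differed by 0.32 and Npy by 0.76 (adjusted p 0.055). Among members under the filter, Tac1 (3.59), Cort (2.90), Cartpt (2.13) and Crh (1.68) had positive fitted differences, and Tac2 (-0.66), Gal (-0.35) and Trh (-0.21) negative ones, without a test.

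Proteases, their inhibitors and matrix genes passed the filter in 11 of 20 cases, with 9 higher and 1 lower. Beside Serpinb2 and Acan these were Vcan (3.14) and Tnc (2.51), which encode the matrix proteins versican and tenascin-C, Adamts1 (3.24) and Adamts8 (3.16), proteases that cut such proteins, Serpini1 (1.48) and Plat, the tissue plasminogen activator (0.98), and Ncan (0.53). Brevican, another proteoglycan of the same family, went the other way (Bcan -0.61, adjusted p 0.00102), and Adamts9 was not called (0.32). A gene as low in TTX and vehicle as Serpinb2 could enter the test only by being high in some group. The median was 2.51 log2 over the 11 tested members and 1.09 over all 20.

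**Figure D3:**
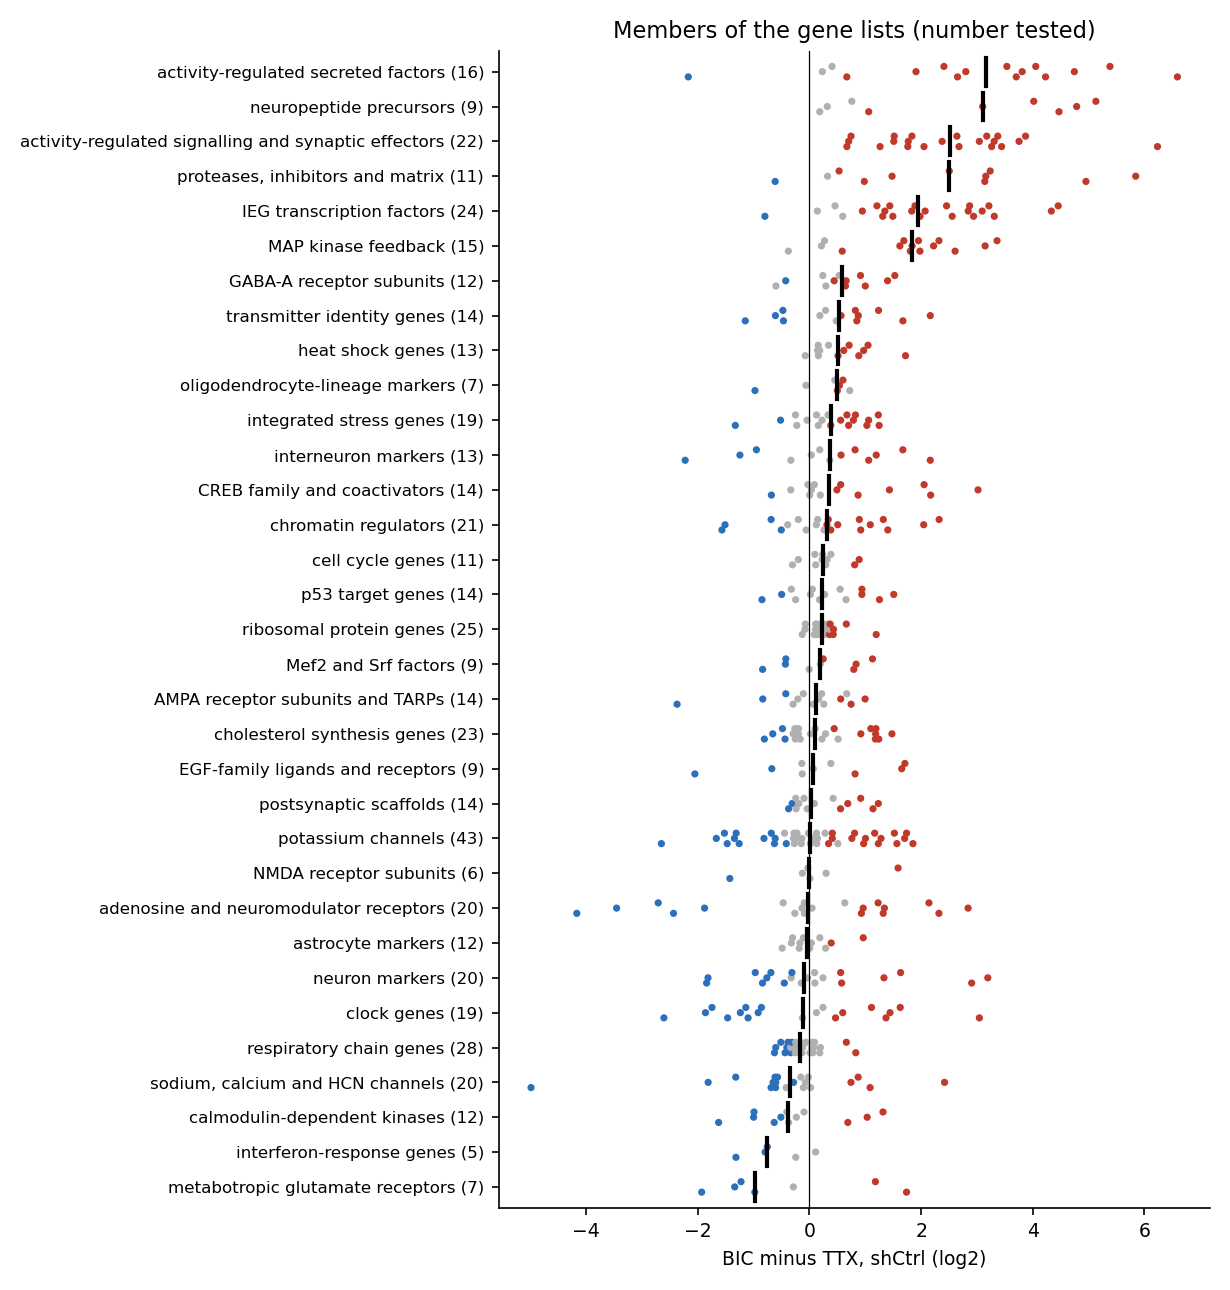
Difference between bicuculline and TTX in control shRNA cultures (horizontal axis, log2) for each tested member of the lists with at least 5 tested genes; points are genes, red for called higher in BIC, blue for called lower and grey for not called, black bars are list medians and the number tested is in brackets. Over tested members, the lists of early-response factors, effectors, feedback inhibitors, secreted factors, neuropeptides and matrix genes have medians between 1.84 and 3.17. Over all measured members, the medians of neuropeptides and matrix genes were 1.90 and 1.09. Ion channel, receptor and clock lists hold called genes on both sides of 0.

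**Figure D4:**
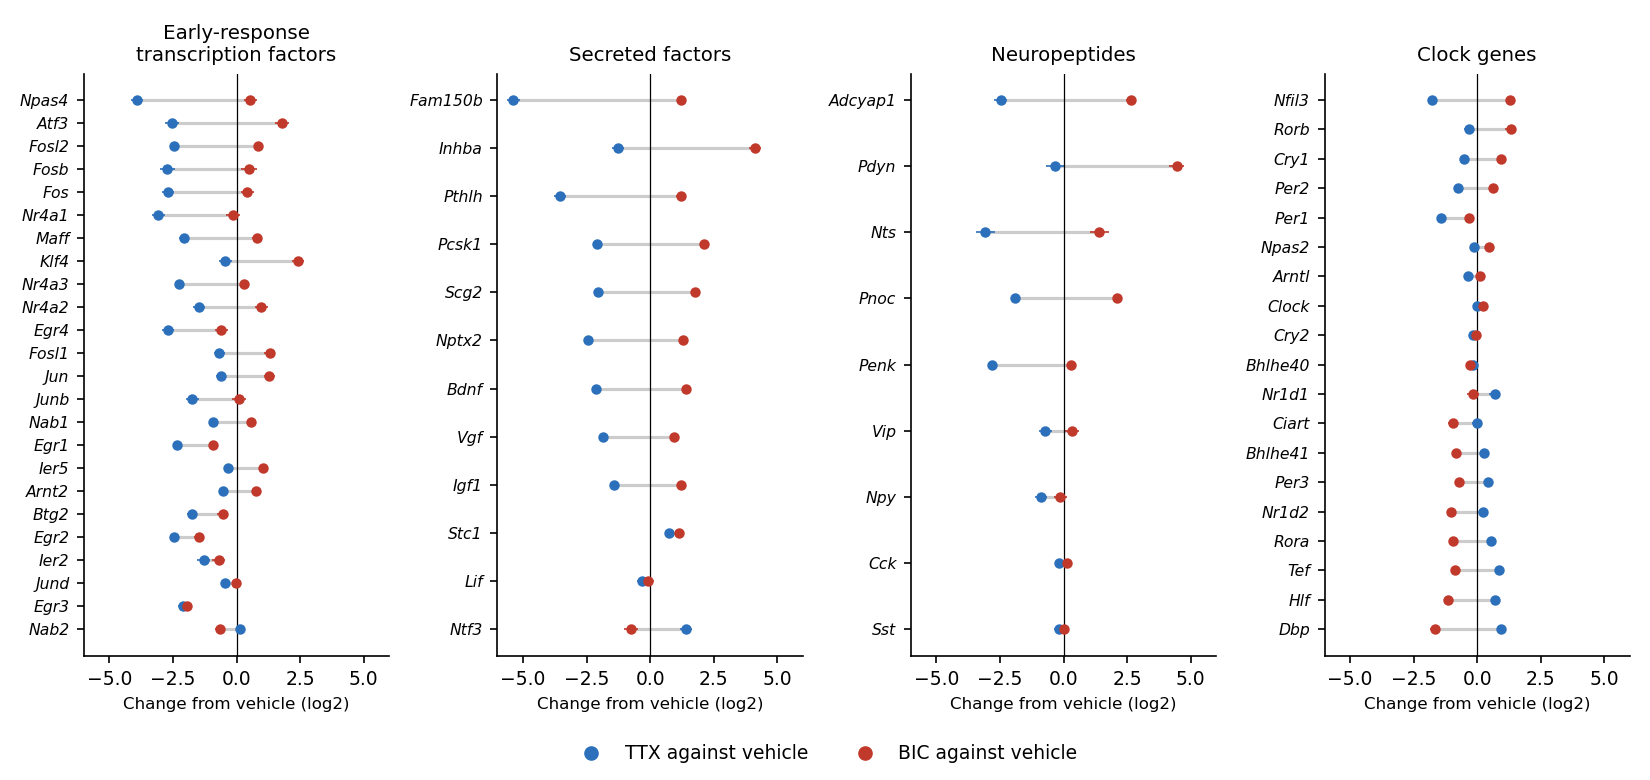
Log2 change from vehicle in the authors' deposited tables (horizontal axis) under TTX (blue) and BIC (red) for tested members of 4 lists in control shRNA cultures (of the secreted factors, those named in the text); error bars are the deposited standard errors, and both changes share the vehicle libraries. TTX points lie left of vehicle for 23 of the 24 early-response factors, and Egr3 has both points near -2.

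Several regulators that act on CREB were higher in BIC, while Creb1 itself was not called. Of 14 listed genes 7 were higher in BIC, 1 was lower and 6 were not called. All 3 salt-inducible kinases, which hold the CREB coactivators of the CRTC family in the cytoplasm, were higher: Sik1 by 2.17, Sik2 by 3.02 (shared interval) and Sik3 by 2.05 (adjusted p 1.79e-74). Crem, which gives rise to the inducible repressor ICER, was higher by 1.43 (shared interval), and Atf4, Crebbp and Atf1 by 0.87, 0.56 and 0.49. Crtc1 was lower (-0.68, adjusted p 3.17e-06), and Creb1 differed by 0.003 (SE at most 0.13). Of 12 calmodulin-dependent kinase genes 5 were lower and 3 higher, against 23.0% and 25.1% of all tested genes. Camk2a (-1.0, shared interval), Camk2b (-0.51), Camk2g (-0.63), Dapk1 (-0.99) and the pseudokinase gene Camkv (-1.63) were lower, and Camk2d (1.32), Camk1g (1.03) and Camk4 (0.69) were higher.

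Chromatin regulators were higher in 11 and lower in 4 of the 21 tested cases, against 25.1% and 23.0% of all tested genes. The 3 TET enzymes, which oxidize methylated cytosine, differed in direction: Tet3 was higher by 2.05 (32.4, 26.2 and 114 FPKM in TTX, vehicle and BIC, shared interval), Tet2 by 1.40, and Tet1 was lower at -1.51 (8.70, 6.97 and 4.20 FPKM, adjusted p 4.89e-30). The deacetylase genes Hdac9 (2.32) and Hdac5 (1.32, shared interval) were higher and the demethylase gene Kdm2b was lower (-1.57). The pooled FPKM of Kdm2b differed less, at 12.8 in TTX and 10.1 in BIC with overlapping bounds. The DNA methyltransferases also went apart, Dnmt1 at 1.09 and Dnmt3a at -0.69, both with shared intervals. Rai1, the target of the shRNA in the other arm, was not called (0.12, SE at most 0.11, adjusted p 0.37, shared interval). Among the 9 tested MEF2 and SRF factors 4 were higher and 3 lower, against the same 25.1% and 23.0%. Srf itself was at 22.5, 45.3 and 23.8 FPKM in TTX, vehicle and BIC, low under both drugs (difference 0.20, adjusted p 0.34).

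Clock genes were called in 16 of 19 cases, 7 higher and 9 lower, against 25.1% and 23.0% of all tested genes. The clock runs on activators (CLOCK, NPAS2 and ARNTL) that switch on Per and Cry repressors and, through D-box and ROR-element factors, a layer of output genes. Among repressors of the core loop, Cry1 was higher in BIC by 1.44, Per2 by 1.37 and Per1 by 1.11. Per2 was at 7.36, 11.9 and 24.1 FPKM in TTX, vehicle and BIC. Per3 was lower (-1.14). Nfil3, which represses at D-boxes, was the highest at 3.04 (7.98, 22.7 and 72.1 FPKM, adjusted p 8.24e-67). The 3 PAR-bZIP activators of the same D-box element were all lower, Dbp at -2.61 (shared interval), Hlf at -1.86 and Tef at -1.75 (47.8, 32.1 and 19.4 FPKM). Nuclear receptors of the loop were lower for Nr1d2 (-1.24), Nr1d1 (-0.86, adjusted p 0.019) and Rora (-1.47, shared interval) and higher for Rorb (1.63). Clock (0.24, adjusted p 0.17), Cry2 (0.12) and Bhlhe40 (-0.12) were not called.

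Receptors of the fast transmitters were called in both directions. GABA-A receptor subunits, the target of bicuculline, were higher for 7 of 12 tested genes and lower for 1, with a median of 0.59 log2. Gabra2 (1.40) and Gabrb2 (1.00) were among the higher ones, with Gabra2 at 22.1, 23.2 and 33.9 FPKM in TTX, vehicle and BIC. Gabra3 was the lower one (-0.42, with a pooled FPKM ratio of the opposite sign), and Gabrd (-0.60) and Gabrg3 (0.24) were among those not called. AMPA receptor subunits and their auxiliary proteins were called in 6 of 14 cases, 3 in each direction. Over all tested genes 25.1% were higher and 23.0% lower. Gria2, the subunit that keeps AMPA receptors impermeable to calcium, was higher (0.75, adjusted p 6.59e-05) and Gria1 was lower (-0.42, adjusted p 0.015). The auxiliary subunit gene Gsg1l had the largest fall of this list, from 16.4 FPKM in TTX to 7.65 in BIC (difference -2.37, adjusted p 2.75e-68). Of 6 tested NMDA receptor subunits, Grin3a was higher (1.59, shared interval) and Grin2d lower (-1.43), while Grin1, Grin2a and Grin2b differed by -0.03, 0.30 and -0.13 and were not called. Apart from a later striatal list, metabotropic glutamate receptors had the lowest median of the lists with at least 5 tested genes, at -0.98 log2. Of 7 tested, 4 were lower (among them Grm2 -1.23, Grm3 -0.98, Grm4 -1.93) and 2 higher (Grm7 1.74, Grm8 1.18). For Grm3 the pooled FPKM was nearly equal, at 3.35 in TTX and 3.33 in BIC.

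Of 14 tested transmitter identity genes 7 were higher and 4 lower, against 25.1% and 23.0% of all tested genes. Genes of GABA synthesis were among the higher ones. Gad2 and Gad1, the GABA-synthesizing enzymes, were higher by 2.17 and 1.67, and Gad2 was at 38.0, 46.8 and 86.7 FPKM in TTX, vehicle and BIC; both genes have shared intervals. Slc32a1, the vesicular GABA transporter, was higher by 0.57 (adjusted p 0.00372). Slc6a11, a GABA transporter of the plasma membrane, was lower (-0.61). The chloride importer gene Slc12a2 was higher (0.85) and the exporter gene Slc12a5 lower (-0.47). On the glutamate side the vesicular transporter gene Slc17a6 was higher (0.88) and Slc17a7 lower (-0.48).

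Ion channel genes were called in both directions. Of 43 tested potassium channel genes 15 were higher and 12 lower, against 25.1% and 23.0% of all tested genes. The subunit genes Kcnf1 (1.85), Kcnj3 (1.57), Kcnk10 (1.17) and Kcnj2 (1.71) were higher. Kcna2 (-1.34), Kcnt1 (-1.52) and Kcnh3 (-2.65, shared interval) were lower. Sodium, calcium and HCN channel genes were lower in 10 of 20 tested cases and higher in 4, against 23.0% and 25.1% of all tested genes. The 3 T-type calcium channel genes were all lower, Cacna1h at -1.81 (shared interval), Cacna1g at -1.32 and Cacna1i at -0.62, and so were the L-type genes Cacna1c (-0.65) and Cacna1d (-0.57), both with shared intervals. Hcn2 was lower (-0.61). The pore-forming sodium channel genes Scn8a (0.02), Scn2a1 (-0.07) and Scn3a (-0.15) were not called, and Scn1a was higher (1.09).

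Receptors for neuromodulators spread from -4.17 to 2.84 log2. Of 20 tested genes 8 were higher and 5 lower, against 25.1% and 23.0% of all tested genes. The higher ones included Htr2a, the serotonin 2A receptor, at 1.69, 5.07 and 18.5 FPKM in TTX, vehicle and BIC (difference 2.84, adjusted p 2.80e-54), Adra1a, an alpha-1 adrenergic receptor (2.32), and Htr2c (2.14, shared interval). The muscarinic receptors differed in direction, with Chrm1 at 19.1, 17.7 and 6.40 FPKM (difference -1.88) and Chrm3 higher by 0.96. Beside Adora2a and Ntsr1, the lower genes were Chrm1, Drd2, the dopamine D2 receptor (-2.71), and Oprd1, the delta opioid receptor (-2.44). Adora1, the more widely expressed adenosine receptor, was not called (-0.09, adjusted p 0.72).

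Among genes of cell maintenance, most cholesterol synthesis genes were called below vehicle under each drug. The authors' deposited tables put 19 of 23 below vehicle under TTX and 17 of 23 under BIC. Over all tested genes the shares were 18.2% and 22.1%. Both changes share the vehicle libraries, so these counts are not independent. Hmgcs1, an enzyme early in the pathway, was at 82.0, 156 and 101 FPKM in TTX, vehicle and BIC. These values lie above the bounds listed for them (31.0 to 49.4, 61.4 to 97.2 and 37.0 to 58.5), so its level is uncertain. Between the drugs 8 were higher in BIC (among them Cyp51 at 1.48) and 4 lower (Dhcr7 -0.81), with a median of 0.10. Respiratory chain genes were lower in 8 and higher in 2 of 28 cases (median -0.17). Ribosomal protein genes were higher in 6 of 25 and lower in none (median 0.22). Over all tested genes 25.1% were higher and 23.0% lower. Heat shock genes were higher in 7 of 13, led by Hsph1 (1.72), and none was lower. Integrated stress genes were higher in 10 of 19, among them Nars (1.25), Slc7a5 (1.23) and Asns (1.03), and lower in 2, Ddit4 (-1.33) and Phgdh (-0.52). Of 14 tested p53 target genes 4 were higher and 2 lower, against 25.1% and 23.0% of all tested genes.

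Markers of the labelled cell types were present. Of 20 neuron markers all passed the filter, with 6 higher and 8 lower, against 25.1% and 23.0% of all tested genes. Nefl and Nefm, the light and medium neurofilaments, were higher by 3.20 and 2.91 (Nefl at 45.6, 59.6 and 325 FPKM in TTX, vehicle and BIC) and Nefh, the heavy one, was lower (-0.84); Nefm and Nefh have shared intervals. The excitatory lineage genes Neurod6 (-1.84) and Neurod2 (-1.82) were lower. Of 14 interneuron markers, among them Gad1, Gad2 and Slc32a1, 13 were tested, with 6 higher and 3 lower. Their differences ran from -2.23 to 2.17, with a median of 0.36. Of 15 astrocyte markers 12 were tested, with 2 higher (Sox9 0.96, Gfap 0.39), none lower and a median of -0.05; their summed pooled FPKM was 479 in TTX, 579 in vehicle and 448 in BIC. For the oligodendrocyte lineage 7 of 14 were tested, with 3 higher and Mbp lower (-0.98, with a pooled FPKM ratio of the opposite sign), and the sum was 186, 212 and 211. Of 13 microglia markers only Cx3cr1 passed the filter (1.02, adjusted p 0.00496), the sum was 24.8, 22.5 and 32.5, and Fcrls was listed at 0 in all 3 conditions. The part of these cell types in the gene differences above was not tested.

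Long genes leaned toward BIC. By the length of the deposited interval, the median difference was -0.09 log2 for 2328 genes under 10 kb, -0.05 for 5560 genes of 10 to 50 kb, 0.08 for 3423 genes of 50 to 200 kb, 0.16 for 855 genes of 200 to 600 kb and 0.39 for 145 genes of 600 kb and over. The share called higher went from 15.7% in the shortest class to 49.0% in the longest. The share called lower was 19.3%, 23.5%, 24.1%, 25.5% and 15.9% from the shortest class to the longest. The mean count rises along the same classes, with medians of 175 and 6089 in the shortest and the longest, and with it the precision; its part in these shares was not tested. With shared intervals left out, the median of the longest class was 0.41 over 69 genes.

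The difference between the drugs was nearly the same in the arm with the shRNA against Rai1, which shares no library with the shCtrl values but went through the same fit. Of the 5930 genes called in shCtrl, 5912 (99.7%) had the same sign in shRai1, and the 2 differences correlated with r = 0.97 across the 12333 genes, which are not independent replicates. The difference of the differences was tested on the knockdown comparisons under each drug, which share no library. It was called for 42 genes (0.341%), 22 with a greater value in shCtrl (0.178%) and 20 with a greater value in shRai1 (0.162%), and 842 genes had an unadjusted p under 0.05. The largest on the first side were Pdgfra, the receptor that marks oligodendrocyte precursors (0.50 in shCtrl and -0.90 in shRai1, adjusted p 1.51e-11, shared interval), Eda2r, a receptor induced by p53 (0.55 and -0.60, adjusted p 0.00375), Cspg4, the NG2 proteoglycan of the same precursors (0.54 and -0.47, adjusted p 0.00152), Olig2, their transcription factor (0.60 and -0.39, adjusted p 0.00106), and Dhrs1 (0.86 and -0.12, adjusted p 1.74e-04). All 5 were positive in shCtrl and negative in shRai1. The adjusted p values given with them are those of the difference between the arms. Eda2r by itself was not called in shCtrl (adjusted p 0.084 by the two-sided Wald test), at 2.22 FPKM in TTX and 2.37 in BIC.

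On the other side were Lfng, a modifier of Notch receptors (-0.94 in shCtrl and 0.30 in shRai1, adjusted p 1.53e-07), Zscan18 (-0.11 and 0.86, adjusted p 0.00722), Mnt, a repressor that pairs with MAX (-0.60 and 0.29, adjusted p 1.53e-07), Cry1 (1.44 and 2.27, adjusted p 2.42e-06) and Igfbp3 (0.50 and 1.28, adjusted p 0.00106). With Cry1, the clock list had 3 called genes of 19. Per2 differed by 1.37 in shCtrl and 2.09 in shRai1 (adjusted p 5.02e-04), and Hlf by -1.86 and -1.25 (adjusted p 0.014). The early-response factors, effectors, feedback inhibitors, secreted factors and neuropeptides had no called gene in this test. With 0.341% of all tested genes called, no call in lists of this size says nothing particular about them.

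**Figure D5:**
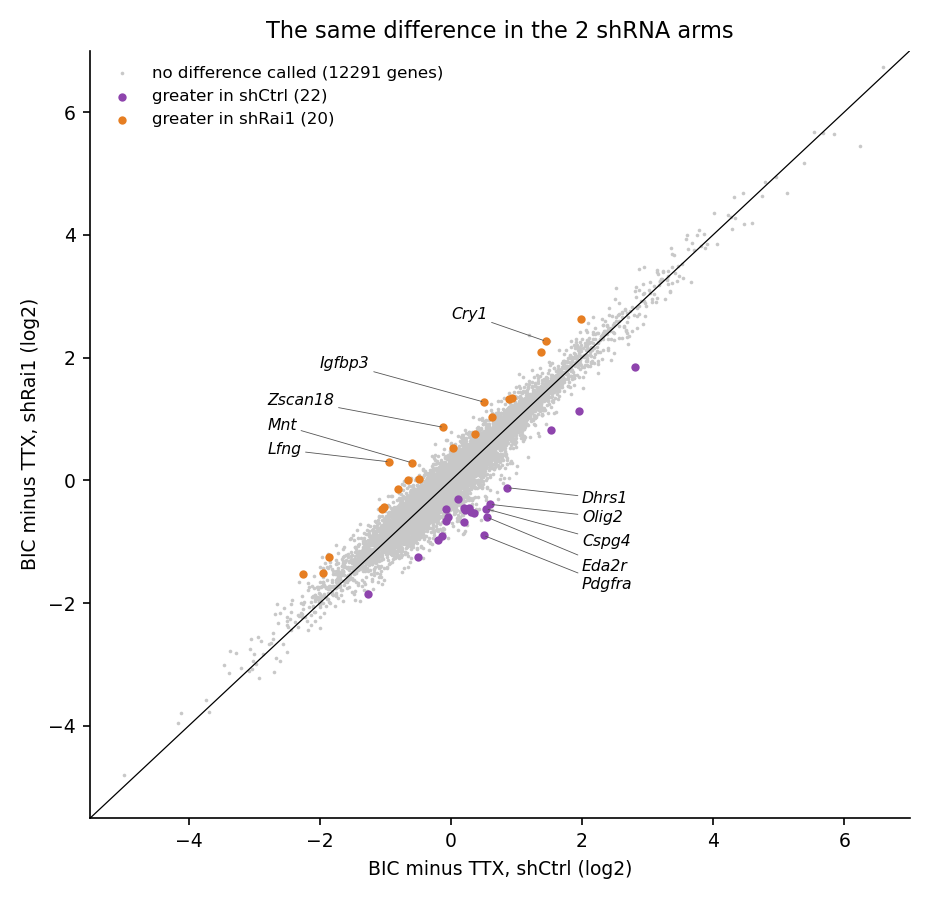
Difference between bicuculline and TTX in control shRNA cultures (horizontal axis, log2) against the same difference in cultures with the shRNA against Rai1 (vertical axis, log2), 1 point per gene; the line marks equal values. The 12333 genes follow the line, and coloured points are the 42 genes whose difference differed between the arms, 22 below the line (purple) and 20 above it (orange).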

How the data were processed

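Nascent RNA was sequenced by Bru-seq, and the values used here are the authors' tables of 7 comparisons over 22919 genes and 1 table of pooled levels. The submitters' processing notes name TopHat2 2.1.0, Bowtie2 2.2.6, DESeq2 and mm9. The deposited comparison tables hold, per the file headers, a mean normalized count over all libraries (a signal scaled by size factors), a log2 change with its standard error, its p-value before and after adjustment, and the Wald statistic (a score). Levels are the authors' deposited FPKM, 1 pooled value for each condition with its bounds. Depth per library is unknown here, so no counting interval is given. The labels do not say whether replicates were separate cultures, so p-values measure only the spread between these samples, which may be technical.

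From these values the difference between the drugs was computed for genes whose normalized count averaged 50 or more, with the root of the summed squared standard errors as an upper bound of its error, a two-sided Wald test and Benjamini-Hochberg adjustment at 0.05 over 12333 genes. The difference between arms used the knockdown comparisons in BIC and in TTX. The computation ran in Python 3.11.15 with numpy 2.4.6, pandas 2.3.3 and scipy 1.17.1. On simulated data for 12333 genes the test of bicuculline minus TTX recovered 84% of genes changed by 1 log2 with 0 false calls. It recovered 28% of those given a smaller change. The error bound was 1.48 times the true error there, so few false calls could arise. The simulated libraries were independent, with errors taken from the spread used to draw them. The simulation therefore says nothing about effects of culture preparation or about errors in the deposited fit. Alternatives changed the filter, the error, the threshold, the centring, the pseudocount and the treatment of shared intervals.

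The members and lists were chosen with earlier results of these data known. Genes were named by rule: the 12 largest differences each way with an unshared interval and separate FPKM bounds, up to 8 called members of a list by smallest adjusted p with members that were not called, the 5 largest arm differences each way, and Rai1. Egr1, Klf4, Arc, Alk, Neat1, the striatal genes, the ligand and receptor pairs, the promoters of Pcsk1 and Scg2 and further list members were named after their values were seen. Some members of the lists are counted but not reported here by name. All 12 ChIP-seq samples were left out because they hold no RNA.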

Additional observations from a re-analysis of the deposited data

Results flagged for a closer look

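The difference between bicuculline and TTX differed between the arms for 42 genes by the test of that difference itself (two-sided Wald test, Benjamini-Hochberg adjustment, 2 to 3 libraries per group). Values are the difference in shCtrl minus that in shRai1, on the log2 scale. Of 7 tested markers of the oligodendrocyte lineage 3 were called, where 0.341% of all tested genes were. All 3 had greater values in shCtrl, with Pdgfra at 1.40 (SE 0.17), Cspg4 at 1.00 (SE 0.21) and Olig2 at 0.99 (SE 0.20). Eda2r stood at 1.15, Dhrs1 at 0.98 and the noncoding RNA gene Neat1 at 0.97 (adjusted p 0.029). Of 14 tested p53 target genes 2 were called, and the list median was 0.23 in shCtrl and -0.25 in shRai1. Of 3 tested endothelial and mural markers 1 was called, which was Cspg4 again. The 3 clock genes called, of 19 tested, had values below 0, with Cry1 at -0.82 (SE 0.13), Per2 at -0.72 (SE 0.14) and Hlf at -0.61 (SE 0.15). Lfng was at -1.24, Zscan18 at -0.98, Mnt at -0.88, Igfbp3 at -0.77 and the receptor gene Alk at -0.64 (adjusted p 0.034). Alk and Neat1 were chosen after their values were seen.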

How the results depend on the processing

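No paired analysis was possible because the files give no value per library, and leaving out a replicate in turn was not run for the same reason. The count of 5930 genes became 6556 with the error bound from the knockdown tables, 7907 with an apportioned error, and 1892 with a size of at least 1 log2 (1109 higher, 783 lower). The arm difference was called for 71 genes at an adjusted p under 0.1 (36 above 0 and 35 below). Other filters, thresholds and centring kept the count of 5930 within 1.5 times. For the arm difference only the filter was varied besides, with 41 genes at a mean count of at least 10 and 42 at 200. Of 217 named genes tested, 14 more were called with the apportioned error and none was lost. The pooled FPKM ratio reversed Gabra3 (0.044 at a pseudocount of 0.1 and 0.039 at 1) and Mbp (0.21 and 0.20), the cause was not tested, and 50 others had overlapping bounds. With members of a mean count of at least 10, list medians were 2.73 for secreted factors, 0.27 for the EGF family, -0.63 for metabotropic glutamate receptors, 1.82 for proteases and matrix, 0.20 for the oligodendrocyte lineage, 0.62 for microglia and -0.28 for interferon genes, the filter bringing in members with few reads. With all members above 0, an alternative chosen after seeing the data, they were 2.73, 2.24 for effectors, -0.63 for metabotropic glutamate receptors, 1.90 for neuropeptides, 1.09 for proteases and matrix, -0.065 for the oligodendrocyte lineage, 0.063 for microglia and -0.0044 for interferon genes. Called genes had the same direction in pooled FPKM in 94.1% of 5917 cases.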

Other observations

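In a list of genes best known from projection neurons of the striatum, most tested members were lower in BIC. The labels name cortices and hippocampi as the tissue. A list of 18 such genes was compiled after values had been seen, so no test of it was made. Of the 16 that passed the count filter 11 were lower in BIC (23.0% of all tested genes were), 2 were higher and 3 were not called, with a median of -1.55 log2. Beside Adora2a and Drd2, the lower genes included Ppp1r1b, the phosphatase inhibitor DARPP-32 (34.6, 26.5 and 5.28 FPKM in TTX, vehicle and BIC, difference -3.28, shared interval), Gpr6, an orphan receptor (90.1, 50.8 and 12.1 FPKM, difference -2.61), Adcy5, an adenylyl cyclase (-2.11), and Rgs9 (-1.55). Penk (3.10) and Pde10a (1.15) were higher, and Drd1a (0.63) and Six3 (0.10) were among those not called. The list is not complete for these neurons. Pdyn, a precursor also known from them, was not on it and was higher by 4.79. Tac1, another such precursor, was under the count filter, with a fitted difference of 3.59 and no test. In the arm with the shRNA against Rai1 the median of the tested list members was -1.49 log2.

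The receptor gene Alk, noticed after values were seen, was higher in BIC together with Fam150b, the gene of its ligand. Alk was at 1.89, 3.10 and 4.64 FPKM in TTX, vehicle and BIC (difference 1.99, SE at most 0.18, adjusted p 1.58e-25 by the two-sided Wald test), and Fam150b at 0.469, 6.71 and 20.5 FPKM. The noncoding RNA gene Neat1 was higher by 2.81 log2 (5.01, 11.8 and 42.5 FPKM, adjusted p 1.08e-23), and in the other arm by 1.84.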
